A study of Mus musculus with 12 samples.

Results

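The 9 genes described here, widely used to recognise macrophages, were followed through 12 RNA-seq libraries of mouse pancreatic islets and islet cells, namely Emr1, Aif1, Mpeg1, Lyz2, Cd68, Ms4a7, Cybb, Spi1 and Cebpb. They were taken by gene symbol from a table of normalized expression values with 22711 gene symbols. The table held 8 of the 9 under these symbols, and Spi1 was found through its Entrez gene ID under its older symbol, Sfpi1. All 9 passed the filter on low values in each of the 4 comparisons made. Spi1, Ms4a7 and Aif1 were below the filter value of 15.5 in every endothelial library. In comparisons with endothelial cells these genes passed only through the other group.

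All mice carried 2 transgenes, written RIP-rtTA; TetO-VEGF-A in the labels. The rat insulin promoter drives the doxycycline-dependent activator rtTA in beta cells, and doxycycline (Dox) then switches on VEGF-A, a growth factor of blood vessels. The groups were whole islets with No Dox, whole islets after 1 week of Dox, macrophages sorted from dispersed islets by CD11b after 1 week of Dox, and endothelial cells sorted likewise by CD31, with 3 libraries each. Every group shares both transgenes, no group received Dox without the VEGF-A transgene and no sorted group was kept without Dox, so the effects of Dox and of VEGF-A cannot be told apart, nor can a change within a cell type be followed over Dox. Ages are not given in sources used here. Between 100 and 300 islets or 8000 and 400000 sorted cells went into each preparation, and the RNA was amplified before sequencing. Nothing in the labels ties the replicates to different mice, and p-values therefore reflect only the spread between these samples, which may be technical.

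Macrophages are phagocytes that live in most tissues and are refilled in part by blood monocytes. Their identity rests on a small set of transcription factors, above all PU.1, which bind widely across the genome of myeloid cells, and on surface, lysosomal and antimicrobial proteins that their work needs. In islets they lie close to the vessels and take up secreted material and dying cells. Among the 9 genes, Spi1 encodes PU.1 and Cebpb encodes C/EBP-beta, a transcription factor that also acts in many other cell types. Emr1 encodes F4/80, an adhesion receptor of the mouse macrophage surface, now named Adgre1. Ms4a7 encodes a membrane protein with several spans. Aif1 encodes IBA1, an actin-binding protein. Cd68 encodes a glycoprotein of lysosomes, Lyz2 the lysozyme of phagocytes, Mpeg1 a pore-forming protein related to perforin, and Cybb the catalytic gp91phox subunit of the phagocyte NADPH oxidase.

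On build mm9, the build of the table, the genes lie on 6 chromosomes. Emr1 lies at chr17:57498109-57622952 on the plus strand and Aif1 at chr17:35307936-35313013 on the minus strand. Mpeg1 lies at chr19:12535269-12539774 on the plus strand and Ms4a7 at chr19:11395529-11410636 on the minus strand. Spi1 lies at chr2:90922547-90955913 and Cebpb at chr2:167514415-167515918, both on the plus strand. Lyz2 lies at chr10:116714390-116719377, Cd68 at chr11:69477715-69479655 and Cybb at chrX:9012378-9064897, all on the minus strand. Cebpb is a single exon that overlaps exons of Tmem189 on the opposite strand. Whether strand was used in counting is not given in sources used here, so the Cebpb values are uncertain. The other 8 genes overlap no annotated gene.

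Because one of the 9 genes encodes PU.1, the promoters of the others were searched for the core of its binding site, GAGGAA, on both strands. RefSeq promoters on build GRCm38.p6, from 250 bases before to 50 bases after the start, were at hand for 7 of the 9 genes, all but Emr1 and Spi1. The 6 letters were present in 4 of the 7, namely Aif1, Cd68, Ms4a7 and Cybb, and in 28.3% of all 32851 promoters of this length. The 4 sequences are shown 5′ to 3′ along the gene's strand, with each match in capitals (TTCCTC is the match on the opposite strand).
Aif1, chr17:35176003-35176302, minus strand: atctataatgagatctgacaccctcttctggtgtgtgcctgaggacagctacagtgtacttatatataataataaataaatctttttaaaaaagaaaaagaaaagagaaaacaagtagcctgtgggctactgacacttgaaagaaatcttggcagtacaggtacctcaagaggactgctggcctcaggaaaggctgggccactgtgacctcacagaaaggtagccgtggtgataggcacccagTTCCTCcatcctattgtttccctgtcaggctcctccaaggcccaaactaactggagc
Cd68, chr11:69666121-69666420, minus strand: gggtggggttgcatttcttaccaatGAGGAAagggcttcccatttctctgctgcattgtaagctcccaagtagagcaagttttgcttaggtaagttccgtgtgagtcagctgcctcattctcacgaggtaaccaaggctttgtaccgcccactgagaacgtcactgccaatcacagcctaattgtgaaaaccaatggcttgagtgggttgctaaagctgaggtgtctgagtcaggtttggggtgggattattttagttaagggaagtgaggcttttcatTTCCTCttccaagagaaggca
Ms4a7, chr19:11336097-11336396, minus strand: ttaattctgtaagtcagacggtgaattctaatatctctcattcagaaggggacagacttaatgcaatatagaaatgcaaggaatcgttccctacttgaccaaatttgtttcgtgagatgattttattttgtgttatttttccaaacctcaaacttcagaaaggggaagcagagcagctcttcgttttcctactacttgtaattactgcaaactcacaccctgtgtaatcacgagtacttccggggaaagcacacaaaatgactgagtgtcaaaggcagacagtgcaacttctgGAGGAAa
Cybb, chrX:9469275-9469574, minus strand: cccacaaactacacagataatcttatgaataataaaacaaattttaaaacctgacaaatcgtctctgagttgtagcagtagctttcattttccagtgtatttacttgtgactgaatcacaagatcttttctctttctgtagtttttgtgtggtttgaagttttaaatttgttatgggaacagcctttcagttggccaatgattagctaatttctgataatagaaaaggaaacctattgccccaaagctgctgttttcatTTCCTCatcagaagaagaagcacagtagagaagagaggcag
Counted from the start site, the matches began at -7 in Aif1, at -225 and 29 in Cd68, at 43 in Ms4a7 and at 9 in Cybb. Of the 2 start sites listed for Ms4a7, the first is shown, and the promoter of the other held no match. A C/EBP motif, TTGCNNAA, was found on either strand in Cd68 alone, at -43, and in 10.8% of all promoters. It overlapped no PU.1 match. A match of letters is a description and not a site of binding, which was not measured here.

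Lyz2 has a near-identical neighbour, Lyz1, and reads of one can be counted for the other, so the values of both are uncertain. Their coding sequences of 447 bases each share 425 bases, an identity of 95.1%. In the first 120 bases, from the GENCODE M1 transcripts, the bases at which they differ are in capitals.
Lyz2, coding bases 1 to 120: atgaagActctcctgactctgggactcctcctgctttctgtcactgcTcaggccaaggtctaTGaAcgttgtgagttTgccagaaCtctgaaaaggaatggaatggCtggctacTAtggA
Lyz1, coding bases 1 to 120: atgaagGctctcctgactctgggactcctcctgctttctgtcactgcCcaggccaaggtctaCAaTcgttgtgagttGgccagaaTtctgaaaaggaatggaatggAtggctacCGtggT
There are 11 such positions in this stretch. The mean Lyz1 signal was 2343 ± 663.1 (SD, n = 3) in macrophages, against 154971 ± 11382 for Lyz2, and both genes had the same order of group means.

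Values below are the authors' normalized signal, a linear scale with a floor of 1. The summed signal of a library ran from 17635776 to 25226447, and read numbers are not given in sources used here. The sorted fractions carried the genes of their gates. Itgam, the CD11b gene, had a mean of 11422 in macrophages and 7.34 in endothelial cells, and Pecam1, the CD31 gene, had 750 and 61400. The mean of Vegfa was 3967 in No Dox and 2027 in Dox islets. Whether transgene reads count towards Vegfa is not given in sources used here, so it gives no check of the transgene. In islets, 2 libraries stood apart, No Dox replicate 2 and Dox replicate 1. Across 14423 genes their deviation from the group mean correlated with the GC content of the transcript (Spearman rho 0.65 and 0.58), while the remaining 4 gave -0.33 to -0.45. This is across genes, which are no replicates of a condition. For Dox against No Dox islets, the calls of the 9 genes and the count of all genes called are given with and without both libraries. Islet calls of other named genes, and most results of sorted cells against Dox islets, are given with all libraries only.

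**Figure D1:**
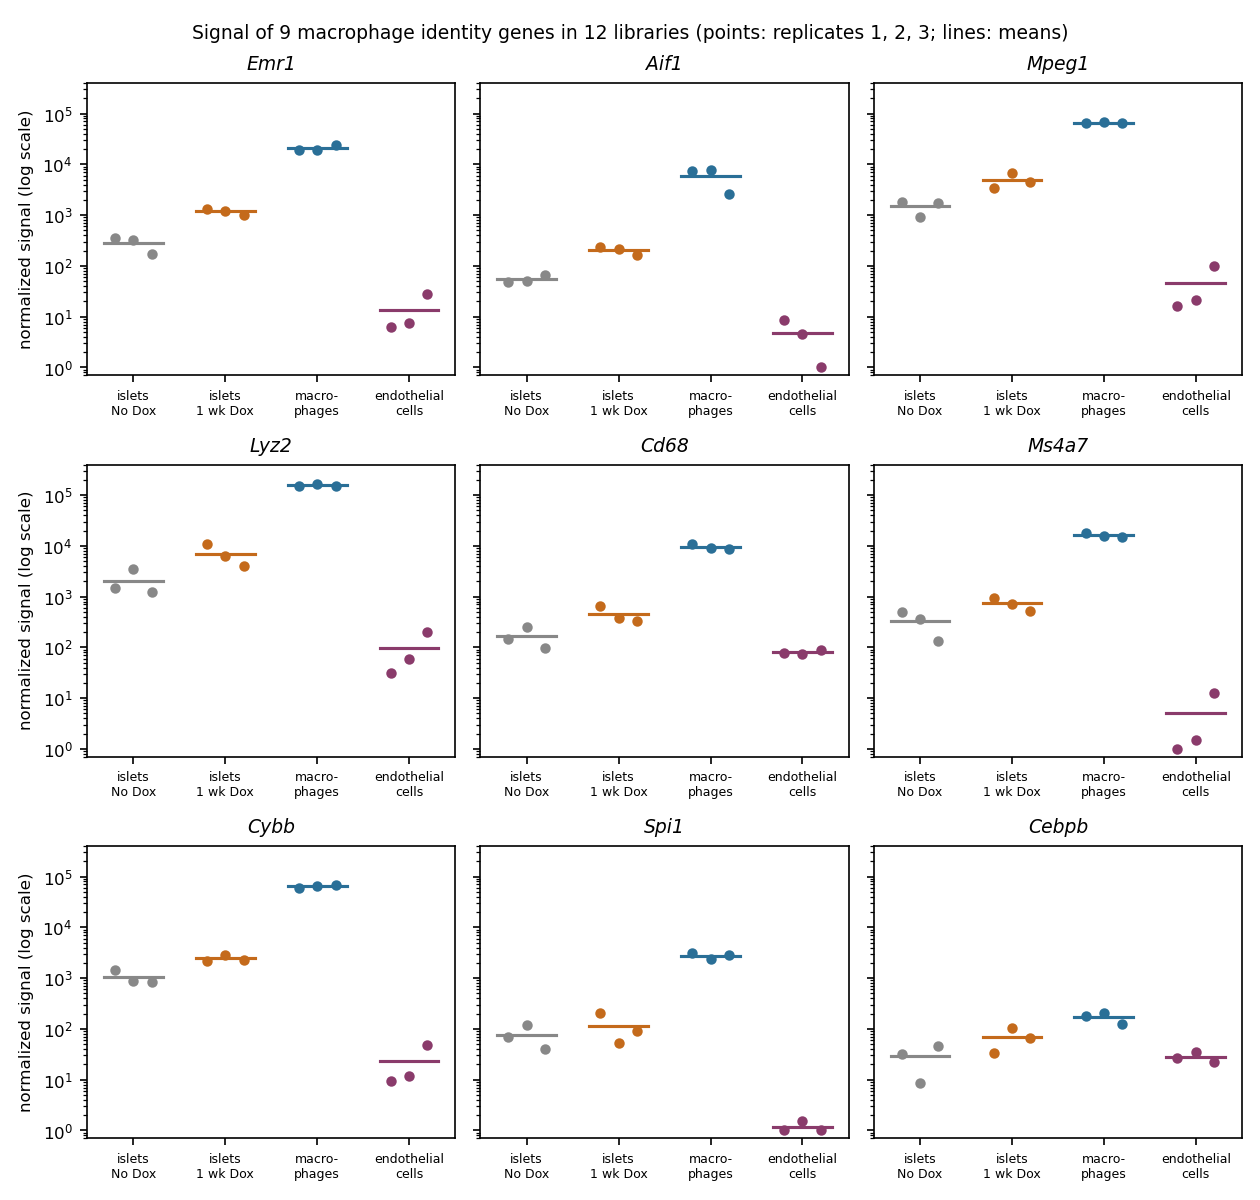
Normalized signal (log scale) of the 9 genes in the 12 libraries, with points for replicates 1, 2 and 3 of each group and lines for group means. The means fall in the order macrophages, Dox islets, No Dox islets and endothelial cells, and those of Cebpb in the last pair of groups, 29.08 and 27.72, nearly coincide.

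Sorted macrophages held the highest level of all 9 genes. To set genes against each other, signal was taken per kilobase of merged annotated exons, and the order depends on that length. It was 4453 bases for Ms4a7 and 1532 for Aif1, against 1576 and 875 for their longest protein-coding transcripts. On this scale Lyz2 led with a mean signal of 118028 ± 8669 (SD, n = 3). It was followed by Mpeg1 (15333 ± 544.9), Cybb (11100 ± 778.3), Cd68 (7521 ± 851.3), Emr1 (6371 ± 808.5), Aif1 (3891 ± 1871) and Ms4a7 (3612 ± 342.5). The genes of the transcription factors came last, Spi1 at 1031 ± 137 and Cebpb at 111.8 ± 27.5. Over the 3 libraries Aif1 and Ms4a7 overlapped, as did Cd68 and Emr1, and no other neighbours in this order did. The sum of the 9 genes was 1.49 to 1.51% of all signal in the 3 macrophage libraries.

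Within the macrophage group the libraries were close for most of the 9 genes. The coefficient of variation ran from 3.55% for Mpeg1 to 24.6% for Cebpb among 8 genes and was 48.1% for Aif1. Aif1, which bundles actin during phagocytosis, had 7564 and 7667 in replicates 1 and 2 and 2652 in replicate 3. The ratio of replicate 3 to the mean of the others was 0.348, and 45 of 5541 genes with high macrophage signal had a lower one (0.812%). Emr1 gave 19302, 19020 and 23698 in the same libraries, so replicate 3 was not low in this gene. The table's header gives each library a number, whose meaning is not stated, and that of macrophage replicate 3 (36904) lies apart from those of replicates 1 and 2 (35212 and 35214). The part of that difference in the low Aif1 value was not tested.

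The gate on CD11b can also admit monocytes, neutrophils and dendritic cells, and genes of all these cells were present in the macrophage libraries. Among 6 monocyte genes, Ccr2 had a mean signal of 17157 ± 3522 (SD, n = 3), and the list's sum ran from 21255 to 26411. The sum of 10 dendritic cell genes ran from 19422 to 24979, with Itgax at 9169 ± 2484 and Cd209a at 6275 ± 1201, and none was at the floor in all 3 libraries. This list was not low in endothelial cells, where it summed to between 9942 and 10531. Of its 10 genes, 8 were higher in macrophages than in endothelial cells and 2 lower, among them Zbtb46 (1730 ± 333.9 against 7124 ± 359.6). In the macrophage libraries the sum of 10 neutrophil genes ran from 3935 to 4674, with Csf3r at 2693 ± 467.8, S100a9 at 421 ± 218.3 and the defining gene Ly6g at 1.212. The 9 macrophage genes summed to between 332394 and 354986 in these libraries. Several of the 9, among them Lyz2, Cybb, Spi1 and Cebpb, are also transcribed in monocytes or neutrophils, and the part of such cells in their level was not tested. The acinar signal, of exocrine cells, was uneven, and 9 acinar genes summed to between 1407 and 429357, highest in replicate 2.

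Against endothelial cells, also sorted from Dox-treated islets, all 9 genes were higher in macrophages, at a background of 27.7% of 13726 genes called higher (limma, adjusted p under 0.05). Macrophages and endothelial cells did not overlap in any of the 9, where 30.7% of all genes were separated in this direction. The median log2 difference of the 9 was 10.74, and that of all genes -0.10. The calls of all 9 held in each of 15 alternative analyses. Of the 9, 7 lay between 10.15 and 11.94, and Cd68 and Cebpb lay apart below them. As a check of the sorts, 12 endothelial genes summed to between 2281 and 3025 in macrophages and to between 348512 and 401460 in endothelial cells.

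Ms4a7 had the largest difference of the 9. Its signal was 17841, 15284 and 15122 in macrophages and 1, 1.505 and 12.51 in endothelial cells, of which 1 is the floor. The log2 difference was 11.94 (SE 0.66, limma adjusted p 1.60e-06), the third largest of the genes tested. Ms4a7 was among the genes tested through its macrophage values alone. The difference was 9.62 with 16 in place of 1 added before taking logs, since values near the floor depend on that choice. Cybb gave 60142, 64112 and 69161 in macrophages and 9.221, 12.04 and 48.47 in endothelial cells, a log2 difference of 11.75 (SE 0.52, limma adjusted p 5.07e-07). In both genes the endothelial libraries with low values were replicates 1 and 2, and every macrophage library was far above every endothelial one.

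The products that act on microbes followed. Lyz2 had 148656, 168111 and 148146 in macrophages and 31.76, 57.95 and 200.7 in endothelial cells, a log2 difference of 11.05 (SE 0.56, limma adjusted p 1.04e-06). Mpeg1 had 64941, 69189 and 65276 in macrophages against 16.39, 21.07 and 100.1 in endothelial cells, a log2 difference of 10.94 (SE 0.58, limma adjusted p 1.31e-06). The macrophage values of Mpeg1 were the tightest of the 9 genes, with the highest library at 1.07 times the lowest. Emr1 in endothelial cells was 6.148, 7.526 and 27.83, and its log2 difference was 10.74 (SE 0.48, limma adjusted p 5.45e-07). Aif1 there was 8.525, 4.516 and 1, and its difference was 10.15 (SE 0.64, limma adjusted p 3.56e-06). Unlike the other surface and effector genes, Aif1 was lowest, not highest, in endothelial replicate 3.

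Spi1, the gene of PU.1, was at or near the floor in endothelial cells, with 1, 1.505 and 1. In macrophages it had 3097, 2374 and 2866. The log2 difference of 10.32 (SE 0.31, limma adjusted p 1.01e-07) depended on the added 1 and was 7.34 with 16 added. Its place among the 9 in this comparison therefore has no fixed size. The groups did not overlap, which the added number cannot change. The commonest value above the floor was 2.049, 1.505 and 3.127 in the 3 endothelial libraries, a step that may stand for a single read, so the 1.505 of Spi1 was 1 such step. In the same steps Ms4a7 had 1 and 4 in endothelial replicates 2 and 3 and was at the floor in replicate 1, while Emr1 had 3, 5 and 8.9. The endothelial levels of these genes thus rest on very little signal.

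In endothelial cells Cd68 and Cebpb were above the floor with libraries within factors of 1.18 and 1.58, while Spi1 was at or near the floor and the highest library of the other 6 genes was 4.53 to 12.5 times the lowest. Cd68 had 77.93, 74.85 and 87.97 there and 10672, 9027 and 8664 in macrophages. The difference of 6.86 on the log2 scale (SE 0.14, limma adjusted p 3.11e-08) had the smallest error of the 9. The mean endothelial level was 0.849% of the macrophage level, against 0.0311 to 0.0785% for the 7 genes other than Cd68 and Cebpb. Endothelial replicate 3 was 1.15 times the mean of replicates 1 and 2 for Cd68, while this ratio was 4.07 for Emr1, 4.47 for Lyz2, 4.56 for Cybb, 5.34 for Mpeg1 and 9.99 for Ms4a7. Endothelial replicate 3 was the highest of its group in 6 of the 9 genes and in 13 of 18 other macrophage lineage genes, against 32.4% of all genes above the floor. Its header number (35905) also lies apart from those of replicates 1 and 2 (35213 and 35215). The 18 summed to between 3102 and 4246 in endothelial cells, most of it from Mertk alone, at 2676 to 3410. Ctss ran from 18.03 to 109.4 and Csf1r from 27.56 to 99.47 there, and C1qa and Trem2 were at the floor in all 3 libraries. Whether macrophages or their RNA in endothelial replicate 3 contributed was not tested. All 9 genes were called without both libraries numbered 3, an analysis added after seeing the data.

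Cebpb had the smallest difference, and also the lowest macrophage level. It had 180, 202.3 and 122.2 in macrophages and 26.64, 34.62 and 21.89 in endothelial cells. The 3 endothelial values lay within a factor of 1.58, and macrophages were 5.86 times higher on the scale of the fit, a log2 difference of 2.55 (SE 0.37, limma adjusted p 0.000453). Tmem189, which overlaps Cebpb on the other strand, also had its highest mean in macrophages, 1017 ± 215.1 against 464.6 ± 55.79 in endothelial cells, and its part in the Cebpb values was not tested.

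**Figure D2:**
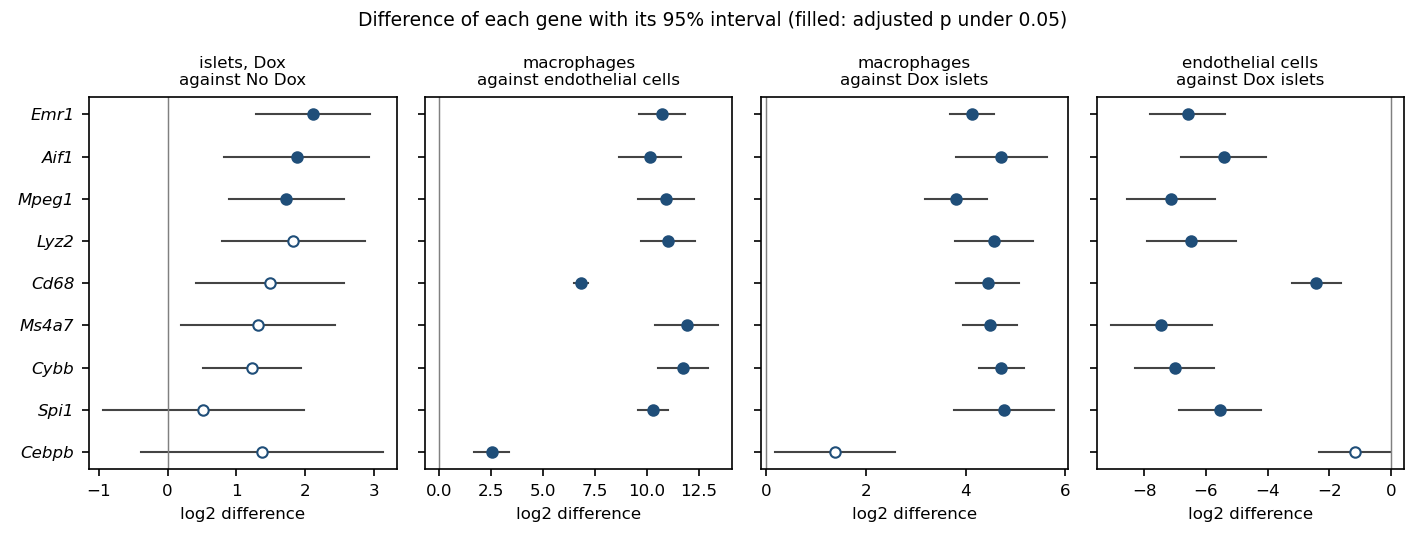
Log2 difference of each gene in the 4 comparisons (points) with its 95% interval (lines), where filled points have an adjusted p under 0.05. All 9 genes are higher in macrophages than in endothelial cells, from 2.55 for Cebpb to 11.94 for Ms4a7, and 3 are called higher in Dox than in No Dox islets.

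In whole islets the same genes could be read with and without Dox, which asks whether macrophage transcripts were more abundant after 1 week of VEGF-A induction. All 9 had a higher mean after Dox, and 3 of them, Emr1, Aif1 and Mpeg1, were called higher (limma, adjusted p under 0.05), at a background of 4.33% of 14443 genes called higher. In 7 of the 9, every Dox library was above every No Dox library, where 15.7% of all genes were so separated. The exceptions were the genes of the transcription factors, Spi1 and Cebpb. The median log2 difference of the 9 was 1.49, and that of all genes 0.11. In whole tissue, more macrophages, more RNA of a gene per macrophage and a changed share of other cells cannot be told apart.

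Emr1, the F4/80 gene, had 348, 321.6 and 173.1 in No Dox islets and 1349, 1179 and 1009 in Dox islets. The lowest Dox library was well above the highest No Dox library. The log2 difference was 2.12 (SE 0.37, 95% interval 1.29 to 2.95, limma adjusted p 0.016), at rank 383 of the genes tested. Aif1 had 47.24, 51.13 and 65.73 against 232, 217.6 and 163.2, and its log2 difference was 1.88 (SE 0.47, limma adjusted p 0.0485). The No Dox values of Aif1 were the closest together of the 9 genes, with a coefficient of variation of 17.8%. Mpeg1 had 1824, 931.3 and 1715 against 3380, 6889 and 4578, and its log2 difference was 1.73 (SE 0.38, limma adjusted p 0.031). Here the gap between the groups was narrower, since the lowest Dox library, replicate 1, was 3380 and the highest No Dox library was 1824.

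Another 4 genes were separated by group without passing the threshold. Lyz2 had 1451, 3450 and 1226 in No Dox and 10678, 6422 and 4022 in Dox islets, a log2 difference of 1.83 (SE 0.47, limma adjusted p 0.0509). Cybb had 1470, 894 and 844.7 against 2190, 2850 and 2313, a difference of 1.23 (SE 0.32, limma adjusted p 0.0522). In both genes 1 No Dox library, replicate 2 for Lyz2 and replicate 1 for Cybb, lay near the Dox range. Cd68 had 146.1, 253.7 and 97.04 against 663, 375.1 and 324.2, a difference of 1.49 (SE 0.49, limma adjusted p 0.106). Ms4a7 had 491.9, 360 and 134.7 against 959.2, 724.9 and 526.7, a difference of 1.31 (SE 0.50, limma adjusted p 0.167). For Ms4a7 the closest libraries of the 2 groups, 491.9 and 526.7, nearly met.

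The transcription factor genes overlapped between the groups. Spi1 had 69.38, 117.6 and 40.59 in No Dox and 202.5, 53.91 and 90.37 in Dox islets, a log2 difference of 0.52 (95% interval -0.94 to 1.98, limma adjusted p 0.752). Cebpb had 32.33, 8.526 and 46.39 against 34.24, 106 and 67.63, a difference of 1.37 (95% interval -0.39 to 3.13, limma adjusted p 0.382). These intervals include both no difference and differences as large as that of Aif1, so neither a rise nor its absence was shown. The highest Spi1 library was Dox replicate 1 and the lowest Cebpb library No Dox replicate 2, the libraries that stood apart in GC.

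The transcripts of the 2 genes lie at the GC-rich end of the 9, with 58.9% for Spi1 and 67.2% for Cebpb, against 42.4% for Cybb, 42.6% for Ms4a7 and a median of 49.4% over all genes. Within its group, Spi1 was above the mean by 0.76 in No Dox replicate 2 and by 1.01 in Dox replicate 1 on the log2 scale. Lyz2 and Cd68 were also highest in these libraries. Cebpb went the other way, at -1.37 and -0.85, although its GC content is at the 99.6th percentile of all genes. Mpeg1 was likewise low in both, at -0.62 and -0.49. With both libraries left out, 302 of 14443 genes were called, against 829 with all libraries. Of the 9 genes, 2 were called, Mpeg1 as before (log2 difference 1.67, limma adjusted p 0.0495) and Lyz2 in addition (1.93, 0.0447). Emr1 (2.15, 0.0605) and Aif1 (1.74, 0.131) lost the call with little change of size. With each library's GC trend removed, an analysis added after seeing the data, calls over all genes rose to 1690. Of the 9, 5 were then called, the same 3 with Cybb (1.22, limma adjusted p 0.0316) and Cd68 (1.48, 0.0419).

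**Figure D3:**
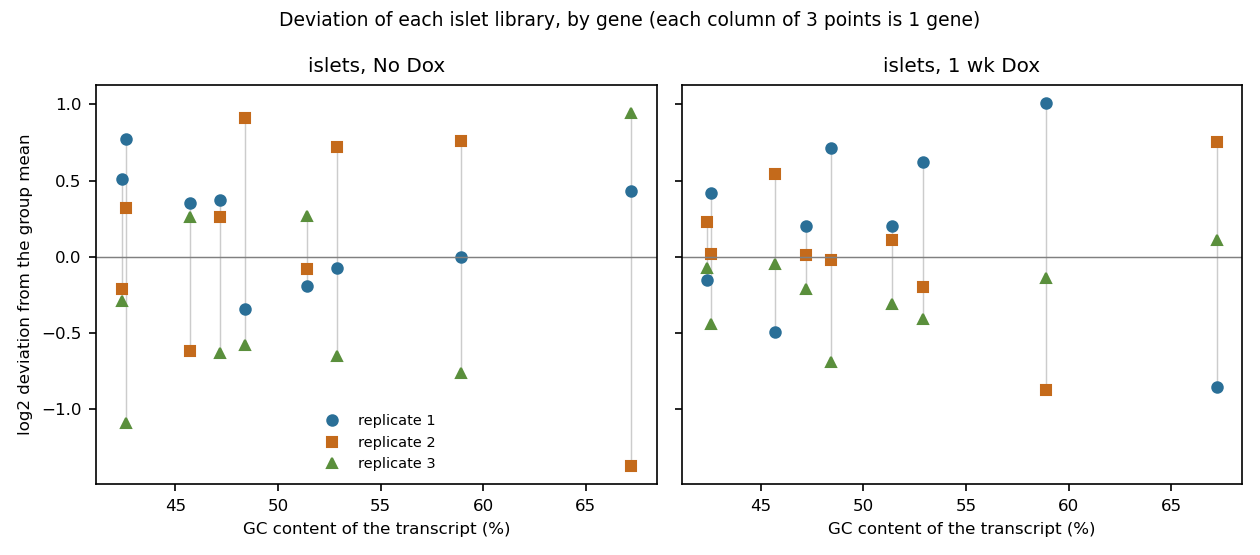
Log2 deviation of each islet library from its group mean (vertical axis) against the GC content of the transcript in percent (horizontal axis), with each column of 3 points standing for 1 of the 9 genes. In No Dox replicate 2 and Dox replicate 1, Spi1 at 58.9% lies above the mean (0.76 and 1.01) and Cebpb at 67.2% below it (-1.37 and -0.85).

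The calls in islets rested on few libraries. Of 16 alternative analyses, Emr1 was called in 12, Mpeg1 in 10, Lyz2 and Cybb in 4 each, Aif1 in 3 and Cd68 in 2, and Ms4a7, Spi1 and Cebpb in 0. All 144 differences kept their sign. None of the 9 was called without Dox replicate 2 or without Dox replicate 3 (6 and 7 had an unadjusted limma p under 0.05), and none without the filter on low values (6). The sizes changed less than the calls. Without Dox replicate 2 or 3, the log2 difference was 2.11 and 2.23 for Emr1 (2.12 with all libraries), 1.83 and 2.03 for Aif1 (1.88), and 1.46 and 1.76 for Mpeg1 (1.73). Over all genes, calls fell from 829 to 5 without Dox replicate 2 and to 87 without Dox replicate 3.

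The islet libraries numbered 1 also carried header numbers that lie apart from those of replicates 2 and 3. The ratio of Dox to No Dox signal was 3.88 in replicate 1 and 4.42 in the means of replicates 2 and 3 for Emr1, and 4.91 and 3.26 for Aif1. It was 7.36 and 2.23 for Lyz2, 4.54 and 1.99 for Cd68, and 2.92 and 0.912 for Spi1, higher in replicate 1. It was 1.85 and 4.33 for Mpeg1, 1.49 and 2.97 for Cybb, 1.95 and 2.53 for Ms4a7, and 1.06 and 3.16 for Cebpb, lower in replicate 1. Emr1 thus had the most even rise over the 2 sets of libraries, and Spi1 was above 1 in only one of them. With 1 library per group in the first set, this difference was not tested.

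Genes of other cell types also differed in the same islets, at a background of 4.33% of 14443 genes called higher and 204 genes called lower. The calls below used all libraries, and without Dox replicate 2 only 5 of all genes were called. Of 12 endothelial genes, 8 were higher after Dox, and their sum ran from 53988 to 60645 in No Dox and from 140438 to 177244 in Dox islets. Of 10 beta cell genes, 6 were lower, and their sum fell from between 394856 and 691247 to between 165514 and 227413. Of 10 pericyte and fibroblast genes, 4 were higher, and of 10 cell cycle genes, 6. None of 9 acinar genes was called, and 5 had an unadjusted limma p under 0.05. The median log2 difference was 1.42 for the endothelial, 1.72 for the pericyte and fibroblast and 1.40 for the acinar genes. It was 2.98 for the cell cycle genes and -1.67 for the beta cell genes. Most tested genes of other leukocytes also had a log2 difference above zero. This held for 8 of 9 dendritic cell genes (median 0.74) and for the 2 of 10 neutrophil genes that could be tested (median 0.60). Among the neutrophil genes too low to be tested, S100a9 had a mean of 18.05 ± 17.7 in No Dox and 9.337 ± 5.179 in Dox islets (SD, n = 3). The direction of the neutrophil list as a whole was therefore not shown. Of 6 mast cell genes, 2 could be tested and Cpa3, a mast cell protease gene, was called. It was at the floor of 1 in all 3 No Dox libraries and between 49.23 and 119 in Dox islets (limma adjusted p 0.0124). Cpa3 thus passed the filter through Dox islets alone. The 7 T, NK and B cell genes tested had a median log2 difference of 1.29 and the 5 monocyte genes tested one of 1.03, against 1.49 for the 9 macrophage genes and 0.11 for all genes. None of these lymphocyte or monocyte genes was called (limma, 3 and 2 with an unadjusted p under 0.05). The leukocyte lists were not confined to other leukocytes. Of 6 T, NK and B cell genes tested against Dox islets, 2 were higher in sorted macrophages, where Cd4 had a mean of 887.5, and 1 was lower. Zbtb46 of the dendritic cell list had a mean of 7124 in endothelial cells. The part of the changes in other cell types in the higher signal of the macrophage genes was not tested.

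**Figure D4:**
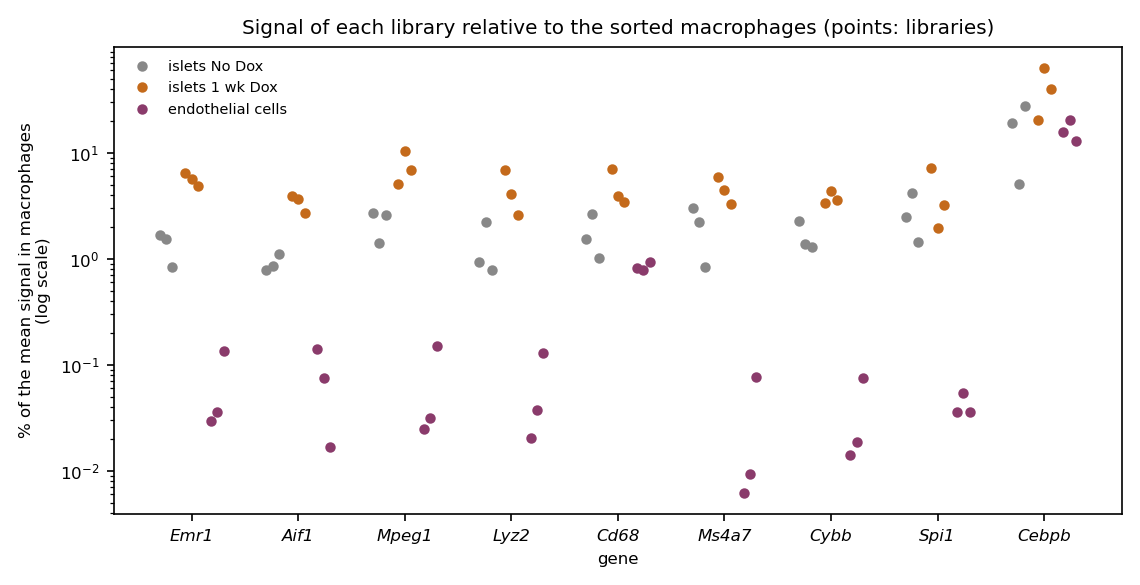
Signal of each islet and endothelial library as a percentage of the mean in sorted macrophages (log scale), with 1 point per library. Without Cebpb, No Dox islets lie between 0.791 and 4.23% and Dox islets between 1.94 and 10.4%, while Cebpb in Dox islets reaches 63%.

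Set against sorted macrophages as a common scale, the 9 genes gave similar but not equal levels in islets. The median over the 9 was 2.28, 2.23 and 1.1% of the macrophage mean in the No Dox libraries and 6.52, 4.42 and 3.43% in the Dox libraries. In Dox islets Mpeg1 stood at 7.45 ± 2.68% (SD, n = 3), Emr1 at 5.70 ± 0.822%, Cybb at 3.80 ± 0.544% and Aif1 at 3.43 ± 0.609%. Mpeg1 and Emr1 overlapped within their spread. Cebpb was far above the rest, at 17.3 ± 11.4% in No Dox islets, 41.2 ± 21.4% in Dox islets and 16.5 ± 3.82% in endothelial cells. In No Dox islets and endothelial cells the values of Cebpb overlapped, while the other 8 genes were higher in every No Dox islet library than in every endothelial library, where 27.6% of all genes were so separated. Cd68 was the closest of the 8, with a lowest No Dox value of 97.04 and a highest endothelial value of 87.97.

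Sorted macrophages were also compared with whole Dox islets. Of the 9 genes, 8 were higher in macrophages, at a background of 21.3% of 14479 genes called higher, and none overlapped, including Cebpb, where 25.0% of all genes were so separated. The 8 log2 differences lay close together, from 3.81 for Mpeg1 (SE 0.28, limma adjusted p 6.21e-06) to 4.78 for Spi1 (SE 0.44, limma adjusted p 2.55e-05). The median over the 9 was 4.48, and that of all genes was -0.20. Emr1 was at 4.13, Cd68 at 4.44, Ms4a7 at 4.48, Lyz2 at 4.57, and Aif1 and Cybb at 4.72, and the 95% intervals of all 8 overlapped. Cebpb was at 1.38 (SE 0.53, limma adjusted p 0.0558). It was called in 6 of 14 alternatives, with differences from 0.95 to 2.09, and its Dox islet value of 106 in replicate 2 came closest to the lowest macrophage value of 122.2.

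Sorted endothelial cells were compared with the same Dox islets, which the comparison above also used. Here 8 of the 9 genes were lower in endothelial cells, at a background of 21.6% of 14218 genes called lower, and the same 8 did not overlap with the islets, where 27.0% of all genes were so separated. The log2 differences were -7.46 for Ms4a7, -7.13 for Mpeg1, -7.02 for Cybb, -6.60 for Emr1, -6.48 for Lyz2, -5.55 for Spi1 and -5.43 for Aif1. Cd68, with its steady endothelial level, differed by only -2.42 (SE 0.34, limma adjusted p 0.000793). Cebpb was at -1.17 (SE 0.50, limma adjusted p 0.109), and its groups overlapped at 34.24 in Dox islets and 34.62 in endothelial cells. Its difference was 0.13 (limma adjusted p 0.872) after quantile normalization and -1.60 (0.0132) without Dox replicate 1, so its direction in this comparison depended on the scaling.

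The relatives and partners of the 9 genes were read in the same comparisons. Among the genes that work with Cybb, Cyba, Ncf1, Ncf4 and Rac2 encode parts of the phagocyte oxidase and Hvcn1 encodes a proton channel. These 5 genes were higher in macrophages than in endothelial cells, with log2 differences from 3.78 for Hvcn1 to 8.94 for Ncf4, against 11.75 for Cybb itself. None of the 5 was called in islets (limma, 0 with an unadjusted p under 0.05), where their log2 differences ran from 0.05 for Hvcn1 to 1.66 for Cyba. The catalytic subunits of other oxidases did not share this pattern. Nox4 and Duox1 were lower in macrophages, with log2 differences of -4.27 and -3.52 (limma adjusted p 9.00e-05 and 0.000865), Nox1 was not called (-0.03, limma adjusted p 0.967), and Nox3 and Duox2 were too low to be tested.

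Ms4a7 belongs to a gene family of which 14 further members were in the table. Of the 8 that could be tested between macrophages and endothelial cells, all were higher in macrophages, with a median log2 difference of 9.78, and Ms4a14 and Ms4a6d reached 10.80 and 10.69. In islets only Ms4a6d of 8 was called higher after Dox, by 2.18 (SE 0.44, limma adjusted p 0.0242), and Ms4a4c and Ms4a6b were at 2.22 and 1.84 (limma adjusted p 0.0616 and 0.0651). Ms4a3 and Ms4a10 were at the floor in all 12 libraries. Ms4a1, the CD20 gene of B cells, was not separated between Dox and No Dox islets (log2 difference 0.06, limma adjusted p 0.981).

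Relatives of the other surface and lysosomal genes differed less in favour of macrophages. Eltd1 and Cd97, adhesion receptors of the family of F4/80, rose in islets by 1.63 and 1.54 (limma adjusted p 0.0267 and 0.0494). Emr4, the third relative, was at 0.74 there (limma adjusted p 0.583). Between macrophages and endothelial cells the log2 difference was -8.04 for Eltd1, 0.53 for Cd97 and 3.94 for Emr4, against 10.74 for Emr1. Lamp1 and Lamp2, lysosomal membrane relatives of Cd68, were higher in macrophages by 1.14 and 0.66, against 6.86 for Cd68, and no LAMP gene was called in islets (limma, 0 of 3 with an unadjusted p under 0.05). Prf1, the relative of Mpeg1 in killer lymphocytes, was not separated between macrophages and endothelial cells (-0.68, limma adjusted p 0.389).

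Relatives of the transcription factor genes divided. Among the ETS family of Spi1, Spic was higher in macrophages than in endothelial cells by 10.05 and Spib by 4.86, and in all 4 genes were higher and 5 lower, the lowest difference being that of Erg, an endothelial factor, at -7.00. Ets1, Ets2 and Elf4 were the 3 of 9 called higher in Dox islets, at 1.80, 1.38 and 1.28. Among the C/EBP family, Cebpa and Ddit3 were higher in macrophages by 7.23 and 1.67, and Cebpg (-0.05) and Cebpz (0.33) were not called. No C/EBP gene was called in islets (limma, 1 of 4 with an unadjusted p under 0.05). Of 10 other transcription factor genes with roles in myeloid cells, 9 were higher in macrophages, and in islets Runx1 alone was called, at 1.81 (SE 0.39, limma adjusted p 0.0308).

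Of 18 other genes of the macrophage lineage, all were higher in macrophages than in endothelial cells and than in Dox islets. Over all genes, 27.7% and 21.3% were called higher in these comparisons. The 18 include Itgam, the gene of the CD11b gate, for which the sort itself selected. In islets 7 of 18 were called higher, against 4.33% of all genes, and the median log2 difference was 1.62. Among the 7 were the mannose receptor gene Mrc1 at 2.27 and the cathepsin gene Ctss at 1.27. Csf1r, the receptor on which macrophage survival depends, was at 1.34 (SE 0.42, limma adjusted p 0.0945). Of 8 genes shared by leukocytes, Lcp1 alone was called in islets, at 1.86 (limma adjusted p 0.0124). Lcp1 was not low in endothelial cells, with 4800 ± 324.6 against 5000 ± 1201 in Dox islets (SD, n = 3), whereas Ptprc was at 34.74 and Laptm5 at 14.86 in endothelial cells.

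For each of the 9 genes the gene with the most similar profile was found among 8049 others, by the root mean square difference of centred log2 values over the 12 libraries. Cd68 was closest to Ncf1, at 0.21, Cebpb to Ogfrl1, at 0.29, Emr1 to Ly86, at 0.31, and Lyz2 to the complement gene C1qc, at 0.32. Mpeg1, Cybb and Ms4a7 had the same closest gene, Ctss, at 0.42, 0.45 and 0.58. Spi1 was closest to Sirpb1a, at 0.43, and Aif1 to Pilra, at 0.56. Among the 9 themselves, Cybb and Ms4a7 were closest, at 0.42, with Emr1 and Lyz2 at the same value, and Cebpb and Ms4a7 were farthest apart, at 3.61. Cebpb was at least 1.87 from each of the other 8 genes.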

How the data were processed

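RNA was measured in 12 libraries, 3 in each of 4 groups taken from the labels. The deposited values are a normalized signal on a linear scale with a floor of 1, made by the authors with a normalization that the sources used here do not give. Per the submitters' processing notes, TopHat2 2.0 and build mm9 are listed, with no role stated. Of the low values of a library, 29.5 to 42.1% were whole multiples (within 0.05) of its commonest value above the floor, so whole reads were not recovered and no count model was used. Of 22793 table entries, 22711 symbols were kept, after 25 symbols stored as dates were restored and the entry with the highest mean was taken for 76 repeated symbols. The table held 0 columns of other samples.

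Log2 of (signal + 1) was fitted in limma 3.58.1 (R 4.3.3), with a variance trend, on the 6 libraries of each comparison and on genes at or above 15.5 (the 40th percentile of non-zero values) in at least 3 of them. P-values were adjusted by Benjamini-Hochberg over all genes tested, with a threshold of 0.05. The fit was tested on simulated data. Signal per kilobase used the merged exons of GENCODE M1. The 9 genes, the 23 other lists and the tests were chosen with earlier results of these data known. From the other lists, the text names genes among the 3 with the highest means, and those that passed where 5 or fewer did. The exceptions, named after their values were seen, are C1qa, Trem2, Mertk, Ly6g, Hvcn1, Ncf4, Cyba, Duox2, Nox3, Ms4a1, Ms4a3, Ms4a10, Spib and Spic. A gene of the fixed lists is not reported here. Alternatives changed the pseudocount, filter, scaling, samples, variance trend and replicate block.

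For macrophages and endothelial cells, the departures of same-numbered libraries from the mean of their group had correlations of 0.20, 0.36 and 0.31. The numbers may thus pair these libraries, although the labels do not state a pairing. The errors and p-values given above come from fits without pairing, and only the alternative with a replicate block used it. In islets the correlations were -0.25, -0.52 and 0.17, and the numbers were not taken to pair.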

Additional observations from a re-analysis of the deposited data

How the results depend on the processing

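Over all alternatives, 531 values of the 9 genes were computed, of which 490 kept their direction and their side of the threshold, 23 lost and 17 gained a call, and 1 reversed. The reversal was Cebpb in endothelial cells against Dox islets, at 0.13 after quantile normalization. In islets, the count of the 9 genes called was 3 and became 5 with 16 added before logs, 0 with no filter (6 with an unadjusted limma p under 0.05), 5 with the GC trend removed, and 0 to 3 with 1 library left out. Of all genes in islets, 829 were called, and 97 with no filter, 1606 with all 4 groups fitted together, 301 with no variance trend, 302 without No Dox replicate 2 and Dox replicate 1, 315 without No Dox replicate 1 and Dox replicate 1, 1690 with the GC trend removed, and 5 to 815 with 1 library left out. The last pair of libraries and the GC correction were chosen after seeing the data. Called genes were split into 625 higher and 204 lower, into 569 and 374 after quantile normalization, and into 468 and 248 after median ratio rescaling. In endothelial cells against Dox islets, 4706 genes were called and 3307 to 8167 with 1 library left out, the highest without Dox replicate 1. With the replicate block, 8676 genes in place of 8117 were called between macrophages and endothelial cells and all 9 genes kept their calls. In islets the block left the count at 3 and exchanged Aif1 (limma adjusted p 0.139) for Lyz2 (0.0149). The cause of these shifts was not tested. The sources used here give no read numbers, and values near the floor, such as those of Ms4a7, Spi1 and Aif1 in endothelial cells, set no firm size for a difference.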
